A study of Caenorhabditis elegans with 2 samples.

Results

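ATTF-3 carries an AT-hook, a short motif that contacts AT-rich DNA in the minor groove. Its binding was mapped by chromatin immunoprecipitation in whole Caenorhabditis elegans young adults, and the peaks described here are those that lay directly upstream of a single protein-coding gene. A peak was counted when its summit fell 1 to 500 bp upstream of the annotated 5′ end of a protein-coding gene, no protein-coding gene on the opposite strand started within 700 bp of the summit on the upstream side, and no tRNA, snRNA or snoRNA gene lay within 200 bp. Of the 1737 peaks in the conservative list derived from both replicates, 512 met this rule (29.5%, 95% Wilson interval 27.4 to 31.7), and they lay at 491 genes. Within that list the peaks were chosen by position alone, so their sequence and same-strand neighbours were not used to choose them. Genes on the opposite strand were part of the rule. Signal and replicate support were not used within the list, but the list itself keeps only peaks that rank alike in paired lists.

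All chromatin came from strain RW12296, which carries st12296[attf-3::TY1::EGFP::3xFLAG] III, a CRISPR insertion of a TY1, EGFP and 3xFLAG tag at the endogenous attf-3 gene. Animals were synchronised by bleaching and L1 starvation, collected as young adults at 63 hours, and the sonicated chromatin was precipitated with an antibody against GFP. The 2 samples were separate biosamples of this 1 group and are called replicate 1 and replicate 2. No untagged strain, other stage or other treatment was analysed here, whole animals mix all tissues, and the lists give no read counts, so the depth behind a peak is unknown. The thresholded lists held 964 peaks for replicate 1 and 1063 for replicate 2, of which 325 and 347 met the same rule. The joint list keeps peaks whose irreproducible discovery rate, a measure of how well peaks rank alike in paired lists, was at most 0.01. Signal is the enrichment value that the authors' lists give each peak, with no unit; joint and replicate signals come from separate lists and are compared here only within a list or between the replicates.

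A promoter is the stretch of DNA before a gene at which transcription factors and RNA polymerase assemble. In C. elegans many genes lie head to head and share the DNA between them, so a peak there cannot be given to either gene. The peaks described here avoid that arrangement only within 700 bp of the summit. Head-to-head genes spaced more widely were kept. At C50B6.3 the nearest such opposite-strand 5′ end lay 979 bp from the summit. The summits of Y38E10A.24 and Y38E10A.22, with values of 804 and 958 bp, lay in the same peak interval. Many worm transcripts are also trans-spliced: the original 5′ end is removed and replaced with a short leader, so that an annotated 5′ end is often the splice site and the start of transcription lies further upstream. Runs of closely spaced genes on the same strand can be transcribed together as operons, from a promoter ahead of the first gene.

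The windows of 101 bp centred on the summits held a recurrent pair of short elements, written GANNCTCCG (element A, where N is any base) and TAAACAA (element B) and searched on both strands. Both were written down after these windows had been compared with windows upstream of other genes, so their frequency here is a description. The following windows, taken from the RefSeq copy of WBcel235 (ce11) and read 5′ to 3′ along the strand of the gene, show the arrangements, with every copy of either element in capitals. The first 4 carry the pair facing each other, C29E4.12 carries both elements in the same direction, rps-28 and rpl-18 carry GANNCTCCG alone, and rpl-3 carries neither. An element on the other strand appears as its reverse complement, so TAAACAA on that strand reads TTGTTTA.
dld-1, chrIV:14464222-14464322, plus strand: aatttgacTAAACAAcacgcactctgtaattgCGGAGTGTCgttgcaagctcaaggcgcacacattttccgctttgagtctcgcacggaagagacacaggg
C50B6.3, chrV:13313189-13313289, plus strand: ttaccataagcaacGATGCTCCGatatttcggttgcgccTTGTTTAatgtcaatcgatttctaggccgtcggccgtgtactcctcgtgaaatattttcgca
syf-3, chrV:5939669-5939769, plus strand: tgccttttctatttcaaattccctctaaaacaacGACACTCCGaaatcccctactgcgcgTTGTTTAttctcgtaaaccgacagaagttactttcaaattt
attf-3, chrIII:86475-86575, minus strand: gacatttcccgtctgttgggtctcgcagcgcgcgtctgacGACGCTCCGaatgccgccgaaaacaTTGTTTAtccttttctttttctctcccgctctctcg
C29E4.12, chrIII:7940981-7941081, plus strand: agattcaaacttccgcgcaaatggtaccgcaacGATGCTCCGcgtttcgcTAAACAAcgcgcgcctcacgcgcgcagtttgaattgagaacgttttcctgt
rps-28, chrIV:1659209-1659309, plus strand: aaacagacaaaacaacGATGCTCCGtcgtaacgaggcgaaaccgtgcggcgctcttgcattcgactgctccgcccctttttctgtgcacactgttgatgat
rpl-18, chrIV:13777643-13777743, plus strand: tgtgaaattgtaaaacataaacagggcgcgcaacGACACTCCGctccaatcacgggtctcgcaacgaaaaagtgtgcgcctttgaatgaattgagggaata
rpl-3, chrIII:3867530-3867630, plus strand: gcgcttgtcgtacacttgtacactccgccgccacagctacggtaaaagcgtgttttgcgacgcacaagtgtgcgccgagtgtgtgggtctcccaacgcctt

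The facing pair was seen in members with high signals and at attf-3 itself. dld-1 encodes dihydrolipoamide dehydrogenase, a shared subunit of the mitochondrial 2-oxo acid dehydrogenase complexes. Its peak had a signal of 3088 in the joint list, 1412 in replicate 1 and 1691 in replicate 2, with the summit 245 bp upstream. C50B6.3 had signals of 1802, 816 and 979 in the same order, 334 bp upstream. The peak of syf-3, a splicing factor gene, had 1448 jointly, 741 in replicate 1 and 697 in replicate 2, 303 bp upstream. The replicates gave similar values at each of these genes, and neither was the higher at all of them. At attf-3 the summit lay 141 bp upstream with a joint signal of 832, and the replicates gave 434 and 405. It ranked 56th of the 512 members by signal, and spt-4, a transcription elongation factor gene, followed attf-3 on the same strand after 97 bp.

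High signals were also seen at C29E4.12, with both elements in the same direction, and at genes with GANNCTCCG alone. At C29E4.12 TAAACAA lay 8 bp after GANNCTCCG, the only same-direction pair with that spacing in member windows. C29E4.12 had 1976 in the joint list, 932 in replicate 1 and 1047 in replicate 2, with the summit 120 bp upstream and kle-2, a condensin subunit gene, 102 bp beyond its 3′ end. rps-28, a protein of the small ribosomal subunit, had the highest signal of all members, 4451 in the joint list, 2222 in replicate 1 and 2246 in replicate 2, with its summit 432 bp upstream. rpl-18, a protein of the large ribosomal subunit, had 1295, 603 and 686. rpl-3, another large-subunit protein gene, carried neither element and had 926, 464 and 469. A match or its absence describes these letters in this window and says nothing further about the factor.

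GANNCTCCG occurred in 106 of the 512 member windows (20.7%, 95% Wilson interval 17.4 to 24.4). With members drawn from the stronger 50% of the joint list the share was 33.7%. The element occurred in 72 of 320 windows at divergent promoter peaks (22.5%, 18.3 to 27.4) and in 78 of 15830 comparison windows (0.493%). The comparison windows lay 206 bp upstream of genes that also lacked a divergent 5′ end and had no summit within 1000 bp. TAAACAA occurred in 83 member windows (16.2%, 13.3 to 19.7), in 60 divergent windows (18.8%) and in 610 comparison windows (3.85%). Leaving off the last letter, GANNCTCC was present in 121 member windows (23.6%), in 86 divergent windows (26.9%) and in 298 comparison windows (1.88%). The shares at members and at divergent promoters had overlapping intervals for both elements, so no difference between these classes was resolved. Wilson intervals cover counting error only and treat peaks as independent; no test was made of any share in this account.

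The spacing of the elements was narrow. Member windows held 66 pairs at any spacing, of which 43 had TAAACAA downstream of GANNCTCCG, on the opposite strand and 16 to 18 bp away. Of these 43 pairs, 9 were 16 bp apart, 9 were 17 bp apart and 25 were 18 bp apart. A smaller group of 8, which does not include C29E4.12, had TAAACAA in the same direction, ending 10 bp before GANNCTCCG. The facing pair at 16 to 18 bp was in 43 members (8.40%, 6.29 to 11.1) and 36 divergent peaks (11.2%, 8.24 to 15.2). It was in 0 of the 15830 comparison windows, a count that allows a share of up to 0.0190%. The 16 to 18 bp range was itself read off these windows. Comparison windows had no joint summit within 1000 bp, and 84 of the 91 facing pairs upstream of genes lay in joint peaks. A count near 0 in the comparison windows was therefore partly set by how they were chosen.

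The copies of GANNCTCCG in member windows were more alike than the search required. Just before the element, A and C stood at positions -2 and -1 in 95.4% and 96.3% of the 109 member copies. At the same positions they stood in 35.4% and 28.6% of all 6644 copies in the genome. The open N positions held C in 62.4% and A in 65.1% of member copies, against 18.3% and 26.6% in the genome. Beyond the element, T at position 13 was found in 80.7% of member copies and C at position 16 in 78.0%, against 32.1% and 27.2% in the genome. Positions are counted from 1 at the G of GANNCTCCG. Of the 109 copies, 79 were on the strand of the gene and 30 on the other, and 83 had their centre within 25 bp of the summit. Of the facing pairs, 33 ran with the gene and 10 against it.

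Across the genome, the facing pair occurred 179 times, and 119 of these (66.5%, 59.3 to 73.0) lay wholly within a peak of the joint list, 47 of them in member peaks. Of the 91 pairs that lay within 500 bp upstream of a protein-coding 5′ end, 84 lay in a joint peak (92.3%, 85.0 to 96.2). Of the 6644 copies of GANNCTCCG, paired or not, 305 lay in a joint peak (4.59%), and 28.7% of the 701 upstream copies did (25.4 to 32.1). Because the elements were chosen on these peaks, these shares describe the same data and are no independent check.

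**Figure D1:**
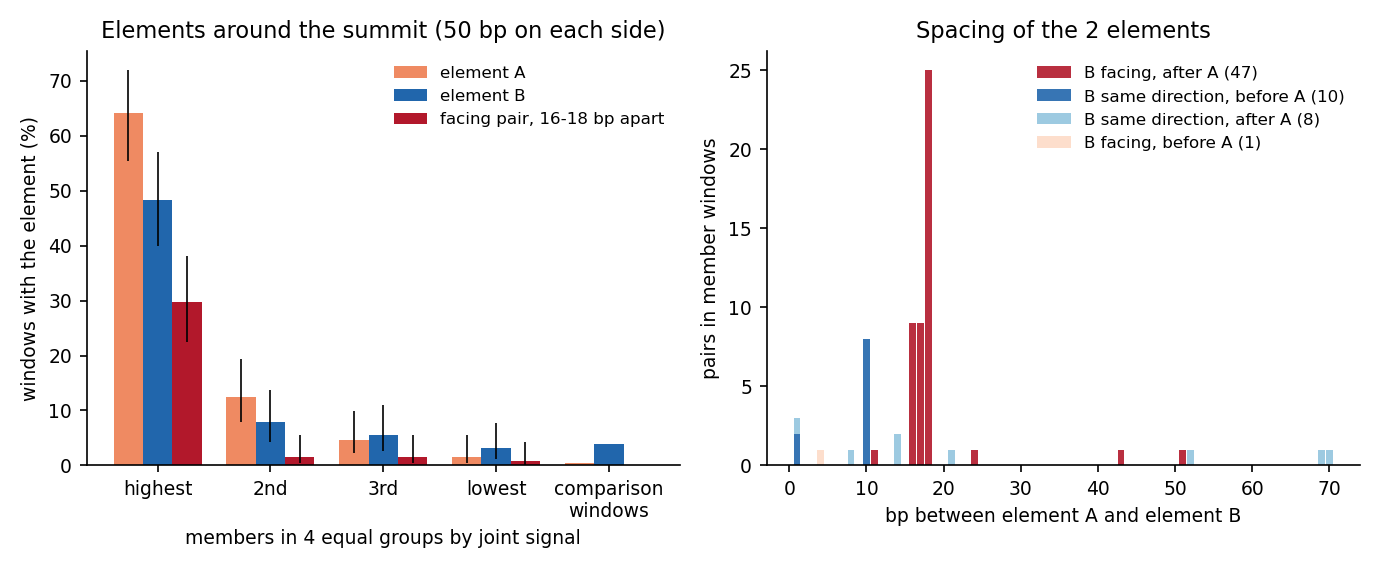
Left, the share of 101 bp windows with element A (GANNCTCCG), element B (TAAACAA) and the facing pair in 4 equal groups of the 512 members ordered by joint signal (128 members each) and in 15830 comparison windows; bars are percentages and lines 95% Wilson intervals (none drawn for comparison windows). Right, the number of element pairs in member windows by the bp between them; 43 facing pairs sit at 16 to 18 bp and 8 same-direction pairs at 10 bp.

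The elements tracked the signal. In the 128 strongest members, with signals from 320 to 4451, 64.1% of windows (82 of 128) had GANNCTCCG and 29.7% (38) had the facing pair. In the next 128 members GANNCTCCG was in 12.5%, then in 4.69%, and in the weakest 128 in 1.56%. The median signal was 812 for the 59 members with both elements, 549 for the 47 with GANNCTCCG alone, 411 for the 24 with TAAACAA alone and 119 for the 382 with neither. The same order held in the values of replicate 1, with medians of 361, 255, 247 and 60.2. In replicate 2 the medians were 405, 291, 309 and 65.1, so the classes with a single element changed places there. Of the members with both elements, 96.6% were in both replicates' thresholded lists, against 37.4% of those with neither and 43.7% of all joint peaks.

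**Figure D2:**
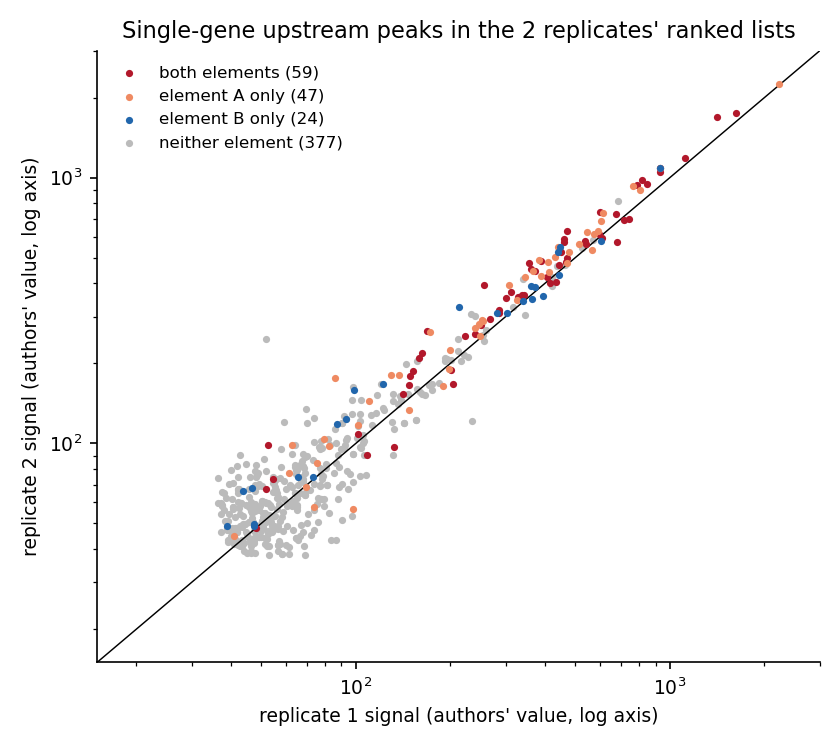
Signal of each member in the ranked list of replicate 1 (x axis) and replicate 2 (y axis), on log axes, for the 507 members matched in both; the line marks equal values and colours mark element A (GANNCTCCG) and element B (TAAACAA). Members with both elements lie mostly in the upper part and along the line, and the spread widens toward low signals.

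The members were also richer in G and C than windows upstream of other genes. Their median GC content was 44.6% (quartiles 39.6 and 50.7), against 46.5% at divergent promoter peaks and 33.7% (28.7 and 38.6) in the comparison windows. These values are for 101 bp around the summit. With 100 bp on each side the members' median was 39.3%, and over whole peaks 36.0%, with no comparison value at those widths. The 6-letter word with the largest excess over the comparison windows was ACGCGC, in 128 of 512 members, against 20.3% of divergent windows and 1.78% of comparison windows. CGCGCG, which overlaps it, was in 10.4% of members, 11.6% of divergent windows and 0.764% of comparison windows. AT-rich words were scarcer: AAATTT was in 17.4% of member windows, against 17.2% of divergent and 25.1% of comparison windows. TTTTTT was in 33.0%, against 28.1% and 45.9%. TTTCAG, which on the strand of a gene is the usual end of a worm intron and of a trans-splice acceptor, was in 8.01%, against 7.50% and 16.5%. All words here were counted on both strands, so the shares of TTTCAG are not counts of acceptor sites. GAGAGA was in 13.7% of members, against 14.7% and 7.11%. GC content did not follow the signal: Spearman's rho over the 512 members, which share the same libraries, was 0.0150.

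The summits lay a short way before the genes. The median distance was 206.5 bp (quartiles 123.75 and 305.25), against 150 bp (83.25 and 226) for the nearer gene at divergent promoters. Of the 512 summits, 95 lay within 100 bp of the 5′ end, 156 lay from there to 200 bp, 130 to 300 bp, 77 to 400 bp and 54 to 500 bp. At divergent peaks 31.6% lay within 100 bp and 3.12% beyond 400 bp, against 18.6% and 10.5% of members. At divergent peaks the distance is that to the nearer of the facing genes. Signals were somewhat lower far out: the median was 141, 158, 157, 112 and 123 over the bins in order, and 89 of the 156 members between 100 and 200 bp were in both replicates' lists (57.1%), and 20 of the 54 beyond 400 bp were. Spearman's rho of signal with distance over the 512 members was -0.122. Most summits, 469, lay between protein-coding genes; 27 lay in an intron, 15 in a UTR exon and 1 in a coding exon.

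**Figure D3:**
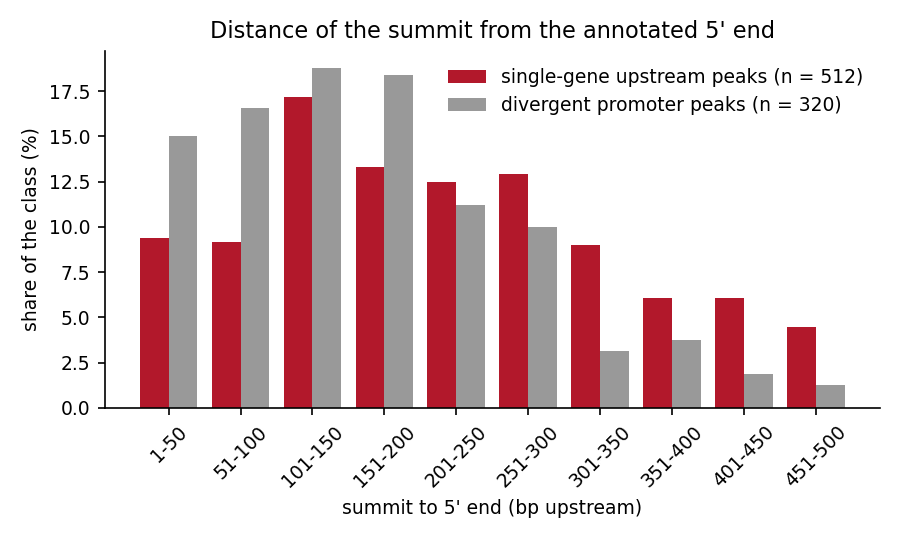
Share of the 512 members (red, left bars) and of the 320 divergent promoter peaks (grey) by distance of the summit upstream of the 5′ end, in 50 bp bins. The most filled bin of both lies between 100 and 150 bp, with 17.2% of members and 18.8% of divergent peaks; members reach further out.

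The limits of the rule cut through a continuous range. Just inside 500 bp lay vha-13, a subunit gene of the vacuolar proton pump, at 492 bp with a signal of 101, smo-1, the SUMO gene, at 491 bp with 108, and a second peak of ndua-5, a respiratory chain subunit gene, at 490 bp with 163. nsf-1, an ATPase of membrane fusion, lay at 483 bp with 121. Just outside lay ari-1.4 at 502 bp with 107, lin-59 at 504 bp with 93.2 and tmem-120 at 508 bp with 82.7, and col-111 and Y59A8B.24 both at 509 bp with 93.4 and 97.6. At the other limit, nsf-1 had its nearest divergent 5′ end 702 bp from the summit, pcrg-1 706 bp, tasp-1 714 bp, cic-1 737 bp and nol-6 742 bp. rpl-7 at 691 bp, prp-8 at 680 bp, let-711 at 671 bp, dnj-13 at 664 bp and T23H2.3 at 658 bp fell on the divergent side. For 329 members no divergent 5′ end lay within 3000 bp. In 7 members a further same-strand gene started within 500 bp downstream of the summit, and the nearer gene was named.

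The 25 members with the highest signal ranged from 1193 to 4451 in the joint list, from 575 to 2222 in replicate 1 and from 570 to 2246 in replicate 2. All 25 were in both replicates' lists, 23 carried GANNCTCCG, 15 carried both elements and 13 the facing pair. timm-23, the channel of the mitochondrial inner-membrane import machinery, followed rps-28 with 3367 jointly, 1625 in replicate 1 and 1749 in replicate 2. sop-3, a Mediator subunit gene, had 1708, 786 and 937. cebp-2, a bZIP transcription factor gene, had 1702, 804 and 901. At all 3 genes replicate 2 was the higher.

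Cyclin, checkpoint kinase and RNA exosome genes were also among the 25. cic-1, cyclin C, had a joint signal of 1691, chk-1, the checkpoint kinase, 1337, and exos-2, an RNA exosome subunit, 1226. arx-7, a subunit of the actin-nucleating Arp2/3 complex, had 1391, and mrps-31, a mitochondrial ribosomal protein, 1215. Of the 25, 2 lacked an exact match to GANNCTCCG, and both held a stretch that differed from it by a single letter. How often other windows hold such a stretch was not counted. The rpl-3 window shown above also held a single-letter variant, tacactccg, so such a stretch does not set these 2 genes apart. F52C12.2 carried neither element, had its summit in a UTR exon 286 bp upstream and reached 1520, with 682 and 815 in the replicates. mecr-1, a gene of mitochondrial fatty acid synthesis, carried TAAACAA and had 1193, with 604 and 580. The others of the 25 were F13G3.10 at 2293, Y50D4C.5 at 2042, C26B2.7 at 1988, F02C12.3 at 1800, Y39B6A.13 at 1408, H35B03.2 at 1336, D1069.3 at 1242, Y104H12D.2 at 1213 and H14E04.2 at 1198.

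Genes were grouped by name into 21 families, and each family was read against all 16697 protein-coding genes with no divergent 5′ end in the 906 bp upstream, of which 2.90% had a member. Of the 35 cytosolic ribosomal protein genes among these, 18 had a member (51.4%, 95% Wilson interval 35.6 to 67.0). These 18 had a median signal of 165 and a median distance of 288 bp, 17 of them were in both replicates' lists, and GANNCTCCG was in 2, rps-28 and rpl-18. After rps-28, rpl-18 and rpl-3 came rpl-35, with 757 jointly, 341 in replicate 1 and 415 in replicate 2, its summit 451 bp upstream. The lowest was rps-21, with 103 jointly, 50.3 and 69.4. Ribosomal protein peaks were frequent, mostly moderate in signal and mostly without the element. Over all 512 members the median signal was 138 and 20.7% carried the element, so most members also lacked it.

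Mitochondrial ribosomal proteins had members at 9 of 44 genes (20.5%, 11.2 to 34.5), with a median signal of 720 and GANNCTCCG at 4. mrps-31, mrpl-11, mrpl-44 and mrpl-20 led them with 1215, 1130, 1084 and 824. Respiratory complexes I to IV, cytochrome c and ATP synthase, some assembly factors included, had members at 8 of 35 genes (22.9%, 12.1 to 39.0), and GANNCTCCG was present at 3 of their 9 peaks. asb-2, an ATP synthase subunit, led them with 936 jointly, 431 in replicate 1 and 503 in replicate 2. ndua-5, a subunit gene of respiratory complex I, followed with 848 at the stronger of its 2 peaks, and cox-5A and cox-5B, subunits of cytochrome c oxidase, had 321 and 291. cox-4 had 111 and no overlapping peak in the ranked list of replicate 1.

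Genes of translation and RNA formed further groups. Translation factors had members at 6 of 21 genes (28.6%, 13.8 to 50). eif-3.B, a subunit of initiation factor eIF3, had 1020, eif-2Bgamma, part of the exchange factor of eIF2, 944, iff-2, which encodes eIF5A, 399, and eif-3.C 223. Splicing and Sm proteins had members at 6 of 30 genes (20.0%, 9.51 to 37.3), led by syf-3, by lsm-5 with 814, by lsm-4 with 433 and by snrp-3 with 141. RNA polymerase subunits had members at 3 of 17 genes (17.6%, 6.19 to 41.0), rpb-6 with 753, rpc-1 with 684 and rpb-5 with 656. Nuclear pore proteins had members at 3 of 14 genes (21.4%, 7.57 to 47.6), npp-13 with 1095, npp-23 with 889 and npp-8 with 256. Aminoacyl-tRNA synthetases had 1 of 21, kars-1 with 117.

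The members on the lists of DNA replication genes, cell cycle and kinetochore genes and chromatin regulators lacked GANNCTCCG. Of all 512 members 20.7% carried it, but 12.5% or less in each group of 128 members below the strongest 128. These lists were drawn by the first letters of gene names, and the cell cycle list did not hold wee-1.3 or chk-1, of which chk-1 carried GANNCTCCG. The cyclin gene cic-1, which carried GANNCTCCG, was on none of these lists. DNA replication genes had members at 3 of 18 genes (16.7%, 5.84 to 39.2), pcn-1, the sliding clamp, with 248, mcm-2 with 214 and mcm-4 with 151. The cell cycle and kinetochore list had 6 of 58 (10.3%, 4.83 to 20.8), led by cdc-48.1 with 904, knl-3 with 199, hcp-1 with 182 and knl-1 with 150. Chromatin regulators had 10 of 91 (11.0%, 6.08 to 19.1), led by dpl-1, a subunit of the E2F-type factor, with 769, lin-9, a subunit of the DREAM complex, with 394, isw-1, a chromatin remodeller, with 270 and mes-4, a histone methyltransferase, with 253. Of the 19 members on these 3 lists, 13 were in both replicates' lists. Members on the aminoacyl-tRNA synthetase, proteasome and small RNA pathway lists also lacked GANNCTCCG.

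Protein handling and traffic families came next. Chaperones had members at 6 of 39 genes (15.4%, 7.25 to 29.7), led by dnj-10 with 524, bag-1 with 341, hsp-1 with 210 and pfd-6 with 182. The ubiquitin pathway had 7 of 61 (11.5%, 5.67 to 21.8), with ufd-3 at 767, ubl-1 at 360 and cul-4 at 187 after cdc-48.1, which both lists of names hold. Vesicle traffic genes had 9 of 93 (9.68%, 5.18 to 17.4), led by apm-3 with 476, vps-52 with 426, sec-61.G with 320 and syx-4 with 312. Proteasome subunits had 2 of 12, rpn-11 with 144 and pbs-3 with 119, and small RNA pathway genes 2 of 39, ego-1 with 95.1 and tofu-6 with 86.9. Of the 4 attf genes in the background, attf-3 was the only member.

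Large tissue-specific families had few members. No member lay at the 154 collagen genes or the 132 neuropeptide genes, counts that allow shares of up to 1.95% and 2.27%. The Wilson upper limits were 2.43% and 2.83%, both below the 2.90% of all genes, and no test of the difference was made. Nuclear hormone receptors had 2 of 252 (0.794%, 0.218 to 2.85), nhr-25 with 94.9 and nhr-236 with 94.2. Chemoreceptors had 1 of 1208 (0.0828%, 0.0146 to 0.467), at a signal of 90.9. None of these 3 weak peaks was in either replicate's list.

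Close downstream neighbours were frequent. A gene on the same strand followed within 1000 bp at 225 members (43.9%, 39.7 to 48.3), against 29.0% of the 16697 genes without a divergent 5′ end. The share was 43.8% over the 491 distinct genes. Within 200 bp, a downstream gene followed at 23.0% of members (19.6 to 26.9), against 8.29% of all such genes. The median gap to the downstream neighbour was 111 bp (quartiles 91 and 327), against 332.5 bp (108 and 627.25). In 29 members the annotated downstream gene overlapped the member gene or lay within it.

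Upstream neighbours showed the reverse for close gaps. A gene on the same strand ended within 1000 bp before the member gene at 227 members (44.3%, 40.1 to 48.7), against 35.6% of all such genes. Within 200 bp, however, it was 5.66% of members (3.97 to 8.02), against 10.8%, and the median upstream gap was 442 bp, against 315 bp. Of the 222 members with an upstream neighbour that did not overlap the gene, 13 had the summit inside that neighbour. Median signals were 150 with neighbours on both sides, 147 with none, 139 with an upstream neighbour only and 127 with a downstream neighbour only, with overlapping quartiles.

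**Figure D4:**
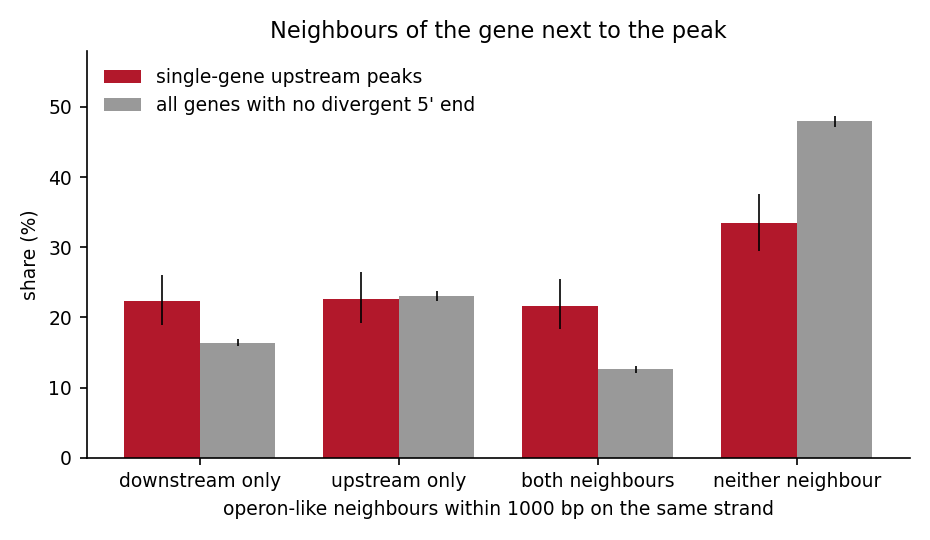
Share of the 512 members (red, left bars) and of all 16697 genes without a divergent 5′ end (grey) by same-strand neighbours within 1000 bp; lines are 95% Wilson intervals. Members have a downstream neighbour only in 22.3%, neighbours on both sides in 21.7% and none in 33.4%, against 16.4%, 12.6% and 48%.

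At 42 members (8.20%, 6.13 to 10.9) the gene stood first in a run of at least 3 such genes, against 5.41% of all such genes. The longest among the 10 strongest of these was led by rpb-6, a subunit shared by the nuclear RNA polymerases, with a peak 308 bp upstream, a joint signal of 753 and replicate signals of 361 and 390. It was followed by dohh-1, dap-3, mrps-22, algn-9, crn-3 and crn-5, with gaps of 161, 87, 105, 99, 116 and 99 bp. F13G3.10, which leads mif-3 after 99 bp and eat-5 after a further 881 bp, had 2293, with 1114 and 1182 in the replicates. gcc-1, ahead of syx-6 and pfut-1 with gaps of 100 and 166 bp, had 541, with 214 and 325. rps-24, ahead of T07A9.14 and ssna-1 with gaps of 92 and 134 bp, had 429, with 217 and 205. The remaining leaders among the 10 were F40F4.7, mob-4, Y53C12A.11, hst-6, C27F2.9 and cpt-2, with signals from 228 to 676. The runs of mob-4, Y53C12A.11, C27F2.9 and cpt-2 reach 3 genes only with annotated genes that overlap the gene before them or lie within it. Such genes were also counted in the 8.20% and in the 5.41%. Whether these runs are transcribed as operons was not measured.

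Replicate support followed the signal. Of the 512 members, 260 overlapped a peak in both replicates' thresholded lists (50.8%, 46.5 to 55.1), against 62.8% of the 320 divergent promoter peaks (57.4 to 67.9) and 43.7% of all 1737 joint peaks. A further 123 members were in a single replicate's list, 55 in replicate 1's and 68 in replicate 2's, and 129 were in neither. The 196 members with the highest signal were all in both lists, and the first that was not had a signal of 182. When the joint list was cut by signal into 5 equal groups, the classes were close within a group. In the second-strongest group 83.2% of members were in both lists, against 85.2% of divergent peaks and 87.3% of all others. In the middle group the shares were 21.4%, 17.9% and 28.8%. Of members, 28.3% lay in the strongest group, against 36.6% of divergent peaks.

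**Figure D5:**
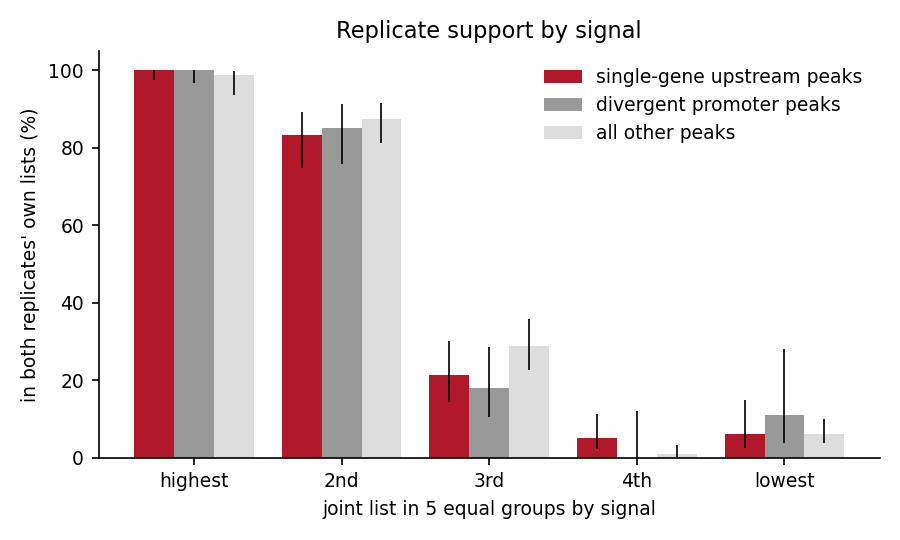
Share of peaks found in both replicates' thresholded lists, in 5 equal groups of the joint list ordered by signal, for members (red), divergent promoter peaks (dark grey) and all other peaks (light grey); lines are 95% Wilson intervals. Members go from 100% in the strongest group to 21.4% in the middle group, 5.10% in the next and 6.15% in the weakest. The 4 members of the weakest group that are in both lists are the weaker peaks of tos-1, cul-4, sucg-1 and cnk-1. Each overlaps a stronger peak, which can account for its presence in the lists.

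The replicates' values for the same members were close. The joint list keeps only peaks that rank alike in paired lists, so this closeness is partly built in and is no independent check. An overlapping peak was found in both replicates' longer ranked lists for 507 of 512 members, and 445 of these differed by at most 1.5-fold between replicates. The median log2 ratio of replicate 1 over replicate 2 was -0.118 (quartiles -0.316 and 0.0875). Over these 507 members, which come from the same pair of libraries, Pearson's r of the log10 signals was 0.960 and Spearman's rho 0.849. Only 5 members were more than 2-fold apart, all higher in replicate 2, and they included the weaker peaks of ndua-5 and tos-1. wee-1.3, a kinase gene of the cell cycle, was one of them, with 59.1 in replicate 1 and 120 in replicate 2.

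Some joint peaks missed the replicates' lists at moderate signals. mcm-4, a subunit of the replicative helicase, had the highest signal of the 129 members in neither list, with 151 jointly and ranked-list signals of 77.5 and 76.5. It was followed by trcs-1 with 128, pkhm-2 with 124, gpd-1, a glyceraldehyde-3-phosphate dehydrogenase, with 124, and hrpl-1 with 120. Among members in both lists, ranks differed most for ubxn-2, 714 in replicate 1 and 1874 in replicate 2, for the weaker tos-1 peak, 1255 and 240, and for thoc-1, 1215 and 567. That tos-1 peak had a joint signal of 12.3 beside a stronger one of 471, which ranked 241 and 240, so in replicate 2 both were matched to the same ranked peak. T01C3.3 ranked 652 and 1227, and imb-3, an importin gene, 1426 and 883.

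The lowest signals belonged to peaks on the shoulder of another. At 21 genes 2 members were listed, and at 20 of these the peaks overlapped, with summits 199 to 229 bp apart. All 20 members with a signal under 50 overlapped a stronger peak of the joint list. cnk-1 had the lowest, 2.06 with its summit 123 bp upstream, beside a peak of 273 at 326 bp; cacn-1 had 2.07, R74.8 3.32, sucg-1 3.59 and snrp-200 3.85. The replicate values matched to such a peak can belong to its stronger neighbour, as for the sucg-1 peak of 3.59, matched to 143 in replicate 1 and 120 in replicate 2, and its presence in the lists rests on the same overlap. C26B2.7 was the exception, with separate peaks of 1988 at 461 bp and 202 at 12 bp upstream.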

How the data were processed

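ChIP-seq peak lists of 2 replicates of 1 group were used. Per the labels, the genome build was ce11; which programs aligned reads and called peaks is not given in the sources used here. In all, 8 peak lists were deposited. Their signal column, an enrichment value per peak with no stated unit, is the authors' own, and so are the score, scaled from the irreproducible discovery rate (IDR) and capped at 1000, and the −log10 IDR in the deposited ranked list. Every joint peak had an IDR of at most 0.01. These values hold no read counts, so precision per peak is unknown. In the ranked list, 8 further columns were not used.

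Peaks were classified against Ensembl release 115 (WBcel235) with Python 3.11.15, pandas 2.3.3, numpy 2.4.6 and scipy 1.17.1, and figures were drawn with matplotlib 3.10.9. A peak was in a replicate's list when they overlapped by at least 1 bp; its replicate signal was that of the overlapping ranked peak with the nearest summit. A same-strand gene within 1000 bp, with no other protein-coding gene between, was called operon-like. Sequence windows held 50 bp on each side of the summit. With 1 group, no test between conditions was possible, and shares carry 95% Wilson intervals. The steps were tested on simulated data.

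Members and gene lists were chosen with earlier results of these data known; the name patterns of the families and the elements were written after the files were seen, and the respiratory chain pattern was widened to further subunit names after its members' values were seen. Named genes were the 25 highest and 5 lowest members, those at the limits of the rule, attf genes, up to 4 per family with at least 3 members, the 10 strongest run leaders, the 5 strongest in neither list, the 5 whose ranks differed most, and genes with 2 peaks. The genes named for families with fewer members, the lowest of the ribosomal genes and wee-1.3 were named after their values were seen. The chemoreceptor gene is not named.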

Additional observations from a re-analysis of the deposited data

How the results depend on the processing

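A value was taken as kept when it moved by less than the SD between the replicates' own lists (for the number of members, within 1.5 times, and for the share in both lists, within its Wilson interval). This SD rests on 2 values, and the same 2 lists are also among the alternatives. For GANNCTCCG it was 0.0746, so even 20.9% with a 500 bp divergent window counted as moved from 20.7%. Where the SD is this small, the counts below say little about robustness, and the sizes of the shifts should be read instead. On that measure the number of members kept its value under 8 of 12 alternatives, the median signal under 7 of 12, the median distance under 9 of 12, the share with a downstream neighbour under 6 of 15, GC content under 5 of 14, the share with ACGCGC under 5 of 13, the share with GANNCTCCG under 0 of 13 and the share in both lists under 8 of 12. GANNCTCCG, in 20.7% of members, was in 33.7% with the stronger 50% of the joint list, 31.5% at an IDR of at most 0.001, 30.2% and 30.3% with replicate 1's and replicate 2's own lists, and 18.8% to 26% under the others. The stronger 50% of the joint list gave 303 members with a median signal of 253, 81.5% in both lists and ACGCGC in 30%. An IDR of at most 0.001 gave 330 members, 216, 78.2% and 29.1%. A 250 bp upstream window gave 315 members, a signal of 148, a distance of 138 bp, a downstream neighbour at 47.3% and ACGCGC in 26.7%. A 1000 bp window gave a distance of 250 bp, 41.7% with a downstream neighbour, a GC content of 45.5%, ACGCGC in 22.4% and 46.4% in both lists. Replicate 1's own list and replicate 2's own list gave, in that order, 325 and 347 members, signals of 105 and 116, distances of 208 and 178 bp, downstream neighbours at 43.1% and 43.8%, GC contents of 44.6% and 45.5% and ACGCGC in 28.6% and 27.4%. The downstream share was 41.1% with the second thresholded list, 44.5% with a 1000 bp divergent window, 43.0% with any transcript's 5′ end, 36.7% with a 500 bp gap and 48.6% with a 2000 bp gap. GC was 45.5% with that list, with a 500 bp divergent window, with any transcript's 5′ end and with no exclusion near RNA genes, 39.3% in windows of 100 bp on each side and 36.0% over whole peaks. ACGCGC was in 29.9% of those wider windows, and 44.3% of members were in both lists when at least 50% of both peaks had to overlap. Chosen after seeing the data, leaving out peaks that overlap a stronger peak gave GC 45.5% and ACGCGC 26.2%, and leaving out overlapping neighbours gave 38.3% with a downstream neighbour. The cause of these shifts was not tested. No paired analysis was possible because there is only 1 group. Without read counts, the depth that limits the weak peaks is unknown.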
